A study of Homo sapiens with 3 samples.

Results

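In a library labelled siTERT, most targets of the inflammatory factor NF-kB had higher levels than in a control library of the same cells. Most genes of mitosis and the kept genes of replication-dependent histones and metallothioneins had lower levels. These are differences between 1 library and 1 library. The members described are the 8318 genes, of 19863 in the table, with a mean level of at least 5 FPKM over the control, siTERT and HKR3 libraries. FPKM is the count of sequenced fragments of a gene divided by transcript length and by library size. The difference of a gene is log2((siTERT FPKM + 1)/(control FPKM + 1)), so 0 means equal levels, and a weakly expressed gene's difference is understated. A fold named below is a fold on this scale.

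The cells were Hep3B, an established line from a human hepatocellular carcinoma. Messenger RNA was sequenced in 3 libraries, 1 per group, all from cells handled with the transfection reagent Fugene HD. The siTERT cells were labelled as transfected with siTERT, a small interfering RNA named for TERT, and the HKR3 cells with the plasmid pcDNA3.1-HKR3. The control carries the title NT-Empty and a treatment label that names the reagent alone. The labels do not say whether the control held an empty plasmid or a non-targeting RNA, nor whether the siTERT cells also received an empty plasmid. They give neither the sequence of the small interfering RNA nor the time from transfection to harvest. With 1 library in each group there is no replicate check, no p-value and no error on any difference. The HKR3 library is shown beside the others for scale, and its differences share the control library with those of siTERT.

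TERT is the reverse transcriptase of telomerase, the enzyme that adds telomeric repeats to chromosome ends. It works with an RNA template and with a group of proteins that mature and carry that RNA, and most liver carcinomas express it. A small interfering RNA guides the Argonaute proteins to a messenger RNA, which is then cut and lost, so the level of the target is the usual first check of such a library.

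The level of TERT was 4.69 FPKM in the control, 5.37 in the library labelled siTERT and 4.25 in the HKR3 library. It was highest in the library labelled for its knockdown. The log2 difference was 0.16, and the ratio of 1.15 had a 95% counting interval from 0.921 to 1.43, on about 150 fragments in the control and 196 in the siTERT library. The label is therefore used below as a name of the library and not as evidence of lower TERT. With a mean of 4.77 FPKM TERT lies just under the level filter and is not among the 8318 genes. ZBTB48, the gene of HKR3, had 4.91 FPKM in the control library, 4.89 in the siTERT library and 2842 in the HKR3 library, so the control and siTERT libraries were level in it.

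Defining genes of the cell line were present. Of 11 hepatocyte and hepatoma markers 11 were kept, with albumin (ALB) at 3317, 3313 and 2703 FPKM in the control, siTERT and HKR3 libraries. KRT8 and KRT18, the keratin pair of simple epithelia, had the largest differences of the list, 0.39 and 0.45. Of 10 stromal and endothelial markers the highest value in any library was 0.202 FPKM (PDGFRB), and 5 were at 0 throughout. Among 12 immune markers LYZ was level at 392.5 and 391.9 FPKM, CD68 was at 32.7 and 44.1 FPKM and CD14 at 6.20 and 4.82 FPKM, while the other 9, among them PTPRC, CD3E and CSF1R, were at 0 or at most at 0.115 FPKM (ITGAM) in these 2 libraries. In bulk RNA, fewer cells of a kind and less RNA per cell cannot be told apart.

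The siTERT and control libraries were close to each other. The median difference was -0.02, the quartiles were -0.13 and 0.10, and 98.1% of genes lay within 1.5-fold, against 73.1% for the HKR3 library and the control. At least 1.5-fold higher were 93 genes (1.12% of those kept) and at least 1.5-fold lower 66 genes (0.793%). With the libraries scaled to one FPKM sum these counts were 122 and 57. At least 2-fold, the counts were 17 higher (0.204%) and 5 lower (0.0601%). The spread across genes shrank with level, from an SD across genes of 0.273 at 5 to 10 FPKM to 0.138 at 300 FPKM and above. Of the 93 higher genes 27 were under 5 FPKM in the control and passed the filter through another library, so that they had to differ between libraries to be kept. The fragments behind these values were estimated at 9.97e+06 for the control, 1.14e+07 for siTERT and 1.06e+07 for HKR3.

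**Figure D1:**
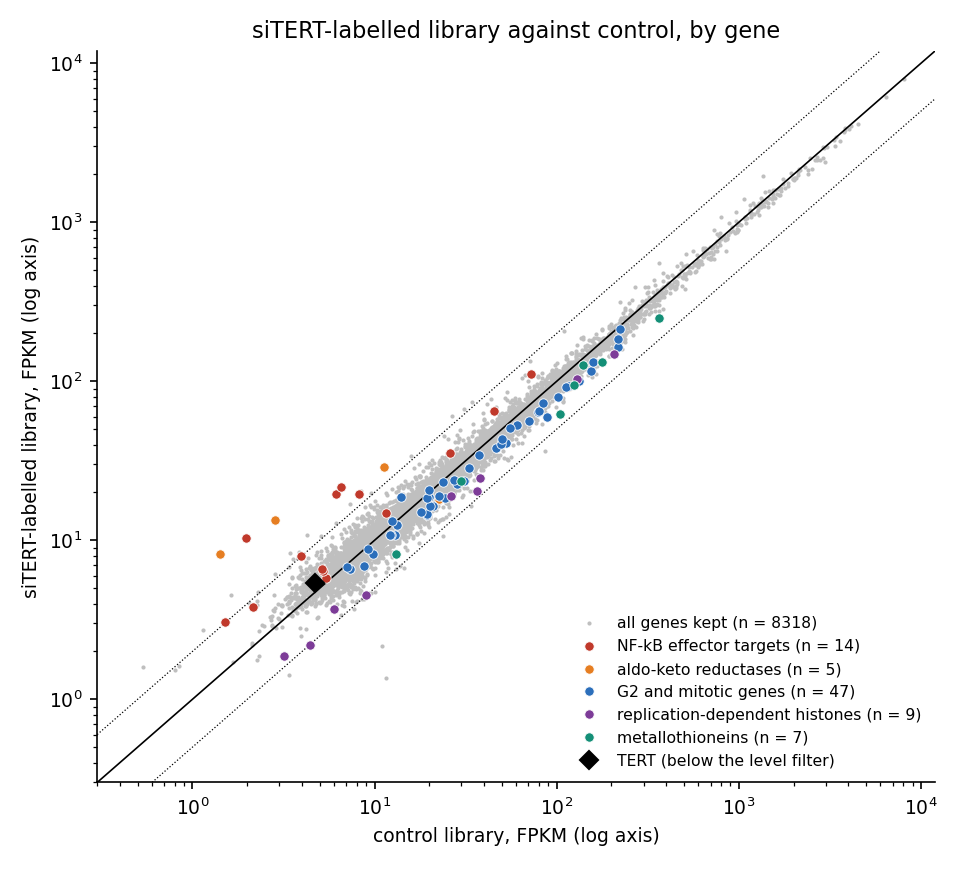
Each point is 1 gene, with its level in the control library on the x axis and in the library labelled siTERT on the y axis. Both are in FPKM on log axes. Of the 8318 genes kept, ENSG00000280071, at 0.00221 and 14.1 FPKM in these libraries, is not drawn. TERT, which is not among the 8318, is added. The solid line marks equal levels and the dotted lines a ratio of 2 in either direction. NF-kB effector targets lie above the solid line, while replication-dependent histones and metallothioneins lie below it, and TERT, at 4.69 and 5.37 FPKM, lies slightly above.

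Chemokines and other targets of NF-kB had some of the largest differences. NF-kB is a dimeric transcription factor held in the cytoplasm by inhibitor proteins until a kinase complex marks them for destruction, and in liver cells it drives chemokine and acute-phase genes. Over 14 kept of 22 listed effector targets the median difference was 0.62, beside -0.02 over all genes. All 14 lay above 0 (45.9% of all genes kept did), 12 were at least 1.2-fold higher (8.24% of all) and 8 at least 1.5-fold (1.12% of all). Of these 14, 4 were under 5 FPKM in the control, CXCL8, CXCL2, TNFAIP2 and TNFAIP3, and passed the filter through another library. All 4 were among the 8. Over effector targets at 5 FPKM or more in the control the median was 0.48. The list of chemokines and cytokines, which shares 4 members with the effector targets, had a median of 0.59 over 12 kept of 25. Of them 12 were above 0 and 6 at least 1.5-fold higher, where 1.12% of all genes kept were. Here too 4 were under 5 FPKM in the control, CXCL8 and CXCL2 among them, and over members at 5 FPKM or more there the median was 0.57. Without the level filter the chemokine median was 0.28. The medians of these lists in the HKR3 library were 0.90 and 1.54.

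Among the chemokines, CXCL8, which attracts neutrophils, had 1.96 FPKM in the control, 10.3 in the siTERT library and 62.4 in the HKR3 library. Its difference was 1.94, the largest of any gene with a symbol, and its ratio of 5.27 had a counting interval from 2.89 to 9.80. CXCL1, a ligand of the same receptor family, was at 8.24, 19.6 and 33.2 FPKM in that order, a difference of 1.16. Both were lowest in the control and highest in the HKR3 library. CXCL5 was at 43.5, 77.7 and 139.8 FPKM (0.82 in the siTERT library), and CCL20, which attracts cells bearing the receptor CCR6, at 366, 554 and 979 FPKM (0.59). IL32, a proinflammatory cytokine, was at 6.16, 19.6 and 36.4 FPKM (1.53). TNFSF10, the death ligand TRAIL, had another order, with 5.78 FPKM in the control, 7.51 in the siTERT library and 3.002 in the HKR3 library.

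The promoters of these chemokines share a short stretch of letters. Shown are the 150 bases before the start of 4 of them, chosen as the chemokines just described, from RefSeq on GRCh38.p14, written 5′ to 3′ on the gene's strand. Capitals mark matches to the kappa-B core GGNNTTTCC on either strand. CXCL8 lies at chr4:73740419-73740568 (plus strand), CXCL1 at chr4:73869243-73869392 (plus), CXCL5 at chr4:73998678-73998827 (minus) and CCL20 at chr2:227813692-227813841 (plus).
CXCL8: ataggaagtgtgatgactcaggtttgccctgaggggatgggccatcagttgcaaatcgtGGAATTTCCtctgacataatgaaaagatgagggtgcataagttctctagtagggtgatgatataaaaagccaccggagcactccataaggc
CXCL1: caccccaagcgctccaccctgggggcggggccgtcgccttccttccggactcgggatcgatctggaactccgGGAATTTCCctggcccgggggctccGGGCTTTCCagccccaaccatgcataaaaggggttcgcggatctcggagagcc
CXCL5: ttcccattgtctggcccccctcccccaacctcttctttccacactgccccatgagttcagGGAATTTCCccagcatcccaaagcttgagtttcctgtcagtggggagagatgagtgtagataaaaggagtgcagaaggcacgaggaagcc
CCL20: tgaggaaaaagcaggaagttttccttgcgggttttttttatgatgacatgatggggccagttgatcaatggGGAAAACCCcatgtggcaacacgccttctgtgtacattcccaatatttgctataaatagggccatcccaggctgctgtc
The CXCL8 and CXCL5 stretches hold 1 match each, CXCL1 holds 2, and CCL20 holds 1 on the opposite strand. Windows of 250 bases before to 50 after the start were searched. The core was found in 7 of 9 promoters at hand of the chemokine and cytokine list and 9 of 11 of the effector targets. Both lists hold CXCL1, CXCL2, CXCL8 and IL32. The core was in 6.26% of all 27305 promoters and in 7.02% of those of kept genes. A match describes the letters and is neither a site nor a cause. Among all 484 kept genes with the core in their promoter the median difference was -0.03, and 3.10% were at least 1.5-fold higher, against 0.986% of the 6896 kept genes with a promoter. Outside the NF-kB and chemokine lists that share was 1.28% of 468 genes.

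Other effector targets were an adhesion molecule, a complement protein and feedback inhibitors. ICAM1, which binds leukocyte integrins, was at 45.0 FPKM in the control, 65.2 in the siTERT library and 69.3 in the HKR3 library, a difference of 0.52. C3, the central complement protein, was at 72.0, 112 and 75.2 FPKM (0.63) and was highest in the siTERT library. UBD, a ubiquitin-like protein induced by cytokines, was at 6.52, 21.8 and 19.99 FPKM (1.60). The overlapping gene GABBR1 shares 65.5% of the sequence of UBD, so its reads are uncertain. The acute-phase gene SAA4, at 26.8, 60.5 and 28.1 FPKM, likewise shares 64.4% of its sequence with a read-through gene. The sum of SAA1 and SAA4 was 38.3, 75.4 and 48.0 FPKM, a difference of 0.96. That sum leaves out the read-through gene, so the reads of SAA4 remain uncertain.

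The pathway's own parts had a lower median than its targets. Of 19 kept genes of subunits, inhibitors and adaptors, 18 were above 0 and 10 at least 1.2-fold higher. Among all genes kept these shares were 45.9% and 8.24%. The list's median was 0.29 in the siTERT library and 0.43 in the HKR3 library. Over members with at least 5 FPKM in the control the siTERT median was 0.19. RELB, the subunit of the noncanonical dimer, was at 3.82, 7.78 and 30.7 FPKM in the control, siTERT and HKR3 libraries (0.87 for siTERT). Its partner NFKB2 was at 9.17, 13.6 and 21.8 FPKM (0.52). The inhibitors NFKBIA (0.44) and TNFAIP3 (0.62), which feed back on the pathway, were also higher. RELA, the main activating subunit, was at 25.7 and 28.2 FPKM, a difference of 0.13, and NFKB1 at 14.0 and 12.9 FPKM was the 1 member below 0.

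**Figure D2:**
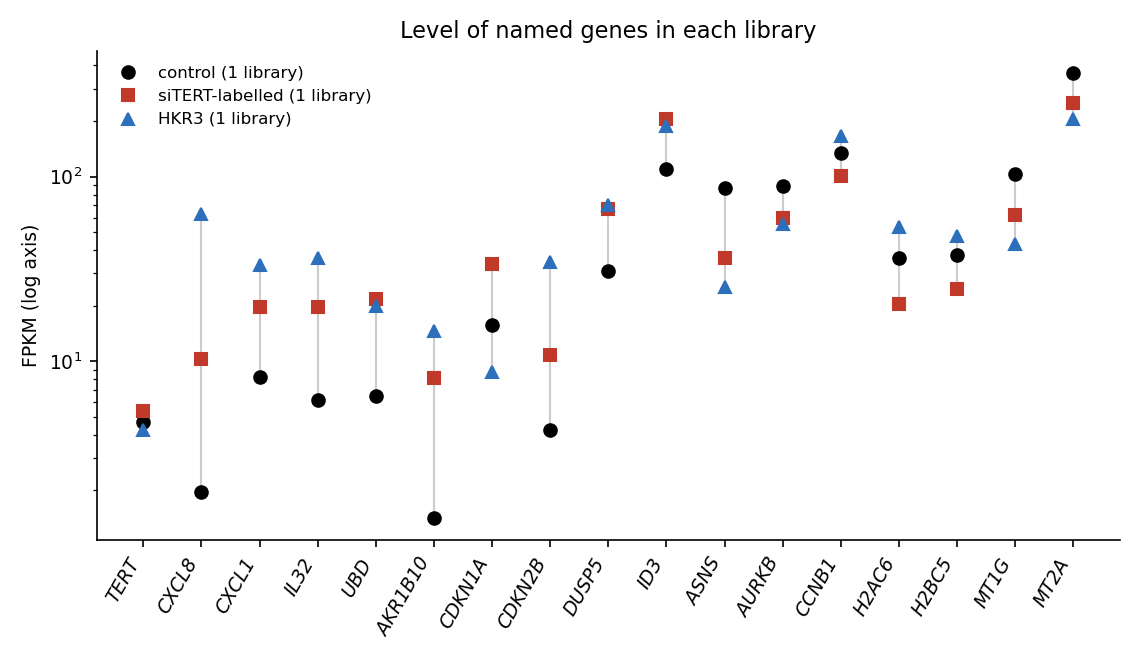
Level of 17 named genes in FPKM on a log axis, with 1 point for each of the 3 libraries. CXCL8, CXCL1, IL32 and CDKN2B have the siTERT library between the control and the HKR3 library, CDKN1A is highest in the siTERT library at 33.7 FPKM, and the histones H2AC6 and H2BC5 are lowest there.

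Single genes of detoxification stood far above the control, while the medians of the wider families lay near 0. The 10 kept cytochromes P450 had a median of -0.03, with 4 above 0, and the 20 kept enzymes of phase II conjugation one of 0.01, with 10 above 0. All 4 of those cytochromes P450 exceeded the control by 1.2-fold or more, and 2 others fell short of it by as much. For phase II these counts were 5 and 1, with NAT1 the highest (6.79, 11.8 and 20.5 FPKM, 0.72). The shares among all genes kept were 8.24% and 8.94%, and 45.9% were above 0. Aldo-keto reductases reduce aldehydes, ketones and steroids. AKR1B10, an aldose reductase often found in liver carcinoma, was at 1.42 FPKM in the control, 8.16 in the siTERT library and 14.5 in the HKR3 library, a difference of 1.92. AKR1C2 was at 2.82, 13.3 and 43.1 FPKM (1.91) and AKR1C1 at 11.3, 29.1 and 55.2 FPKM (1.29). These 2 genes are near copies, so the split between them is uncertain, but their sum of 14.1, 42.4 and 98.3 FPKM differed by 1.52. The other 2 kept members of the family, AKR7A2 and AKR1A1, lay below 0, at -0.30 and -0.32, and 7 of 12 members were not kept. The median of the 5 kept was 1.29, and 0.49 over all listed members without the level filter. Of these 5, 2 were under 5 FPKM in the control, AKR1B10 and AKR1C2, and passed the filter through another library. With the filter set on the mean over control and siTERT the median was 0.50.

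CYP1A1, the cytochrome P450 driven by the aryl hydrocarbon receptor, was at 8.41, 20.3 and 101.1 FPKM, a difference of 1.18 in the siTERT library, and was the 1 cytochrome P450 past 1.5-fold. The receptor's gene AHR differed by 0.64. Over 28 kept genes of NRF2, the transcription factor that KEAP1 releases under oxidative stress, and its targets, the median was 0.18 in the siTERT library and 0.36 in the HKR3 library. Of them 24 were above 0 and 13 were 1.2-fold higher or more, where 45.9% and 8.24% of all genes kept were. The exporters ABCC2 (25.4, 43.3 and 58.4 FPKM, 0.74) and ABCC3 (3.93, 6.49 and 10.0 FPKM, 0.60) were the members past 1.5-fold. ABCC3 was under 5 FPKM in the control, and the counting interval of its ratio, from 0.984 to 2.72, included 1. GCLC, the catalytic subunit for glutathione synthesis, was at 11.1, 16.6 and 47.7 FPKM (0.54) and NFE2L2, the gene of NRF2, at 135, 187 and 249 FPKM (0.46). The much-used markers NQO1 and HMOX1 were level between the first pair, at 695 and 701 FPKM and 68.3 and 68.8 FPKM respectively. The antioxidant response element core TGACNNNGC was found in 6 of 21 of these promoters, against 13.6% of all and 15.9% of those of kept genes. The 6 were GCLM, GPX2, ME1, PGD, PIR and TXNRD1, and not ABCC2, GCLC or NFE2L2. Over the 1097 kept genes with the core the median was -0.03, and 6.38% were at least 1.2-fold higher, against 8.19% of kept genes with a promoter.

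Immediate early genes, which growth factors and stress switch on within minutes, had a median of 0.25 in the siTERT library and 1.68 in the HKR3 library. Of 28 kept, 24 were above 0 and 7 at least 1.5-fold higher, where 45.9% and 1.12% of all genes kept were. However, 7 of the 28 were under 5 FPKM in the control. DUSP5, a nuclear phosphatase of ERK, was at 30.99 FPKM in the control, 67.2 in the siTERT library and 69.8 in the HKR3 library, a difference of 1.09. JUN, of the AP-1 factor, was at 8.49, 14.2 and 146 FPKM (0.68), and ATF3 at 2.25, 4.17 and 38.4 FPKM (0.67). FOS was at 2.72, 3.32 and 17.9 FPKM (0.22), and DUSP1, a phosphatase of p38 and JNK, at 17.8, 19.2 and 179.9 FPKM (0.10). DUSP5 thus stood at nearly one level in the siTERT and HKR3 libraries, while JUN, FOS and DUSP1 in the siTERT library lay nearer the control.

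Over 20 kept genes listed for TGF-beta, bone morphogenetic protein (BMP) and YAP signalling the median was 0.20, and 0.37 over those with a mean of at least 20 FPKM. Of them 14 were above 0, 9 were 1.2-fold higher or more and 2 as far below, where 8.24% and 8.94% of all genes kept were. Those with the largest differences are described here, and ID4 and TGFB2 were under 5 FPKM in the control. ID proteins are short-lived inhibitors of differentiation factors, and their genes are direct targets of SMAD proteins, the transducers of BMP and TGF-beta receptors. ID1 was at 1359 FPKM in the control, 1970.3 in the siTERT library and 1494 in the HKR3 library (0.54). ID3 was at 109.8, 206 and 188 FPKM (0.90), ID4 at 3.84, 8.50 and 6.73 FPKM (0.97) and ID2 at 130.1, 169 and 273 FPKM (0.37). SMAD7, the feedback inhibitor, was at 6.18, 12.8 and 17.7 FPKM (0.94), and the ligand BMP2 at 13.6, 21.5 and 87.1 FPKM (0.62). The YAP and TGF-beta targets CCN1 and CCN2 lay on the other side, at -0.16 and -0.28.

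Inhibitors of cyclin-dependent kinases (CDKs), which hold cells in G1, differed in both directions. CDKN1A, encoding p21, was at 15.8 FPKM in the control, 33.7 in the siTERT library and 8.71 in the HKR3 library. The difference was 1.05, and the ratio of the levels was 2.14 with a counting interval from 1.72 to 2.65. CDKN2B, encoding p15, was at 4.24, 10.8 and 34.4 FPKM (1.17). Of these, p21 was highest in the siTERT library and lowest in the HKR3 library, while p15 was highest in the HKR3 library. CDKN3, a phosphatase of CDK2 that peaks in mitosis, was at 51.2, 32.8 and 37.5 FPKM (-0.63), and the p27 gene CDKN1B was level at 27.4 and 27.1 FPKM (-0.01). The 8 genes had 4 above and 4 below 0, and their median of 0.11 turned to -0.13 over those with at least 5 FPKM in the control.

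Genes of the G2 phase and mitosis lay mostly below 0, by small amounts. Of 47 kept of 49 listed, 44 were below 0 (54.1% of all genes kept were), 21 were at least 1.2-fold lower (8.94% of all) and 0 at least 1.5-fold lower. The median was -0.24 in the siTERT library and 0.05 in the HKR3 library. In ordinary cell cycles these genes are expressed together, from late S phase until division.

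By role, the 8 cyclin and CDK1 genes had a median of -0.28 with 0 above 0. CCNB1, the main mitotic cyclin, was at 133 FPKM in the control, 100.8 in the siTERT library and 166 in the HKR3 library (-0.40). CCNB2 was at 52.9, 40.9 and 57.0 FPKM (-0.36), and CDK1 itself at 55.2, 51.0 and 20.4 FPKM (-0.11). The cyclins B were thus lowest in the siTERT library and CDK1 lowest in the HKR3 library. The 6 polo, Aurora and related kinase genes had a median of -0.33, and 6 of 6 were at least 1.2-fold lower. AURKB, the kinase of the chromosomal passenger complex, was at 88.7, 59.4 and 55.7 FPKM (-0.57), with a ratio of 0.670 and a counting interval from 0.611 to 0.733. PLK1, which drives entry into mitosis, was at 79.9, 65.3 and 96.7 FPKM (-0.29).

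The 9 genes of the spindle checkpoint and anaphase had a median of -0.26, with MAD2L1 (0.05) the 1 member above 0. PTTG1, encoding securin, was at 155, 116 and 169.6 FPKM (-0.42), UBE2C, the ubiquitin-conjugating enzyme of the anaphase complex, at 218, 165 and 114 FPKM (-0.41), and its activator CDC20 at 158, 132 and 237 FPKM (-0.26). The 15 kinesin and spindle genes had a median of -0.20, from KIF20A at -0.42 to ASPM at 0.08. Of 6 kinetochore genes 5 were below 0, and SKA1, which couples kinetochores to microtubules, was the exception at 13.9, 18.7 and 15.7 FPKM (0.40). MKI67, the proliferation marker, was at 23.8, 23.2 and 21.1 FPKM (-0.04). Outside the list, genes of division past 1.5-fold lower included TROAP, a spindle protein, at 82.7, 54.0 and 71.1 FPKM (-0.61) and CENPW, of the kinetochore, at -0.72.

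**Figure D3:**
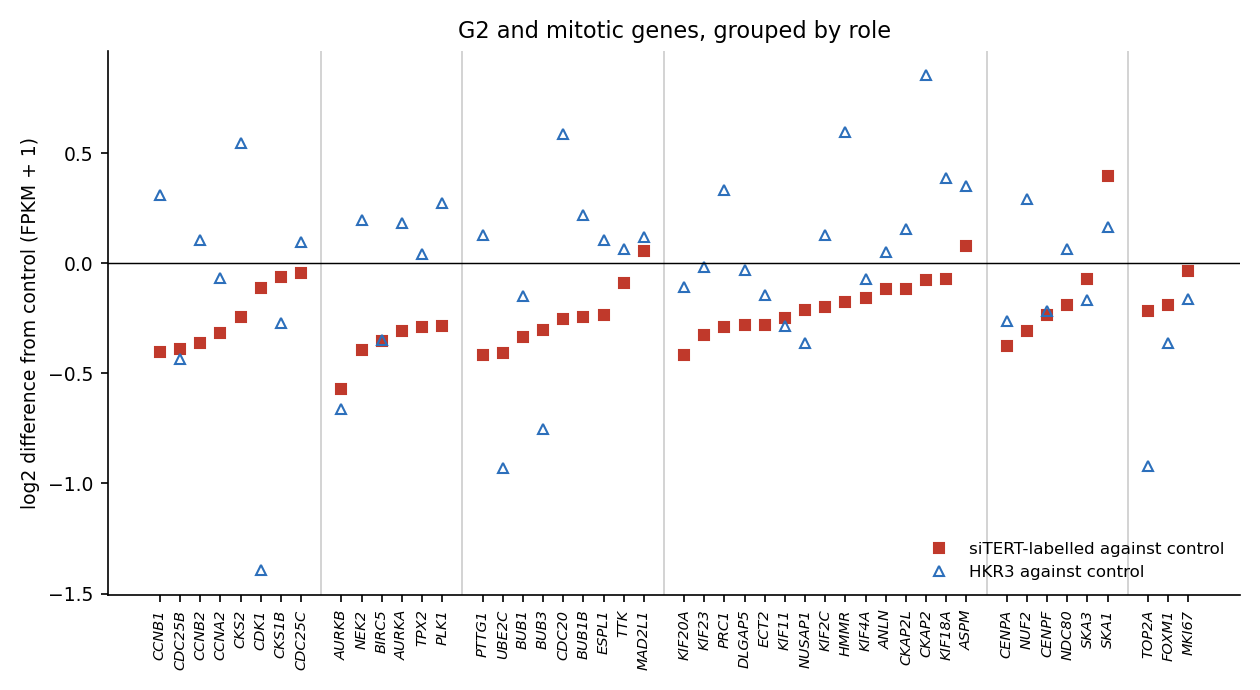
Log2 difference from the control of 47 genes of G2 and mitosis, grouped by role and separated by grey lines, with squares for the library labelled siTERT and open triangles for the HKR3 library. In the siTERT library 44 of 47 squares lie below 0, between -0.57 and -0.04, and SKA1 at 0.40 is the highest, while the triangles lie on both sides of 0 and share the control.

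Mitotic promoters often hold a cell cycle homology region, TTTGAA, near one or more CCAAT boxes, through which complexes of the DREAM and MuvB type and the factor NF-Y act. The 150 bases before the start are shown for 3 of the genes above, chosen because they hold both, with matches to either motif on either strand in capitals. CDC20 lies at chr1:43358831-43358980, PLK1 at chr16:23678739-23678888 and CCNB2 at chr15:59104996-59105145, each on the plus strand of GRCh38.p14 (RefSeq).
CDC20: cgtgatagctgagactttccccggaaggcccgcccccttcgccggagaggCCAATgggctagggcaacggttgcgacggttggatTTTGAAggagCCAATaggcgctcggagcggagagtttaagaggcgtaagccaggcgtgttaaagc
PLK1: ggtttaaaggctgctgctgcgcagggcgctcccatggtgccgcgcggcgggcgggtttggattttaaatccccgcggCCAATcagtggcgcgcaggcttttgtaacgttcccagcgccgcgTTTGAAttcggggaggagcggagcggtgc
CCNB2: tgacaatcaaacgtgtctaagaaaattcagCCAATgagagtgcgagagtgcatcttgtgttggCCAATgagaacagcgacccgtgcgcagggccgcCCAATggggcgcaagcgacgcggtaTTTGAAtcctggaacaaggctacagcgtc
CDC20, PLK1 and CCNB2 hold 2, 1 and 3 CCAAT boxes and 1 TTTGAA each. Of 40 mitotic promoters at hand, 29 held TTTGAA and 30 CCAAT, against 15.4% and 35.7% of all promoters. Among promoters of kept genes these shares were 9.32% and 38.4%. The 29 genes with TTTGAA had a median difference of -0.22, and the 11 without it one of -0.39. Across the 263 kept genes outside the list that held both motifs, the median was -0.03. Of them 12.9% were at least 1.2-fold lower, against 8.86% of kept genes with a promoter.

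Genes of DNA replication, active in S phase, differed less. Over 48 kept of 49 the median was -0.10 in the siTERT library and -0.50 in the HKR3 library. In the first 36 were below 0 and 6 at least 1.2-fold lower, where 54.1% and 8.94% of all genes kept were. GINS2, of the replicative helicase, was at 28.9, 20.6 and 10.8 FPKM (-0.47) and POLE, a leading-strand polymerase, at 13.2, 18.0 and 12.6 FPKM (0.43). The E2F motif TTTNNCGC was found in 24 of 41 replication promoters and 4 of 40 mitotic ones. It was in 6.90% of all promoters and 11.9% of those of kept genes. The mitotic share of 10% was thus near that of kept genes. TTTGAA was found in 1 of the 41 replication promoters.

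Histone genes had the lowest list median. Replication-dependent histone genes supply the nucleosomes of S phase and mostly end in a stem loop without a poly(A) tail. Of 61 listed, 52 fell below the level filter. Whether selection of polyadenylated RNA had a part in that was not tested. The 9 kept had a median of -0.56 in the siTERT library and 0.03 in the HKR3 library. All 9 were at least 1.2-fold lower and 4 at least 1.5-fold lower, where 8.94% and 0.793% of all genes kept were. Without the level filter the median was -0.38. H2AC6 was at 36.4 FPKM in the control, 20.3 in the siTERT library and 53.6 in the HKR3 library (-0.81), with a ratio of 0.557 and a counting interval from 0.485 to 0.640. H2BC5 was at 37.8, 24.5 and 47.5 FPKM (-0.60) and the linker histone H1-2 at 129, 104 and 116 FPKM (-0.31). H2AC6 and H2BC5 were lowest in the siTERT library and highest in the HKR3 library. H2AC20, at 8.93, 4.55 and 2.97 FPKM (-0.84), had another order.

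The 150 bases before the start of H2AC6 at chr6:26124022-26124171 and of H2BC5 at chr6:26157971-26158120, both on the plus strand, are shown because they carry the usual histone arrangement. Capitals mark CCAAT boxes on either strand and the TATA box TATAAA.
H2AC6: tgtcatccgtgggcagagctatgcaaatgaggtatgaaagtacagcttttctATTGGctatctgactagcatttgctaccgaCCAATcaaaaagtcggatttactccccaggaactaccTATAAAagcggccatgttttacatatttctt
H2BC5: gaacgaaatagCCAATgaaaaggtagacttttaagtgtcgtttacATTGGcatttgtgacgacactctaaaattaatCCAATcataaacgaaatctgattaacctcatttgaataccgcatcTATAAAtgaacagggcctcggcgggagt
Here CCAAT or its complement occurs 2 times in H2AC6 and 3 times in H2BC5, ahead of 1 TATAAA. In the 300-base windows 8 of 9 histone promoters held CCAAT and 6 of 9 TATAAA. These are in 35.7% and 11.95% of all promoters and in 38.4% and 5.21% of those of kept genes.

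Replacement and variant histones, made throughout the cycle from polyadenylated messages, had a median of -0.27 in the siTERT library and -0.28 in the HKR3 library. In the siTERT library 9 of 11 were below 0, where 54.1% of all genes kept were. H1-10 was at 70.4, 49.7 and 78.8 FPKM (-0.49) and H2AX, which marks DNA breaks when phosphorylated, at 221, 166 and 108 FPKM (-0.41). H2AJ, at 147 and 166 FPKM (0.18), lay above 0.

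Metallothioneins, small proteins that bind zinc and copper and are induced through the factor MTF1, were all below 0. The 7 kept of 10 had a median of -0.43 in the siTERT library and -0.98 in the HKR3 library. In the first 6 were at least 1.2-fold lower, where 8.94% of all genes kept were. MT2A was at 364 FPKM in the control, 249.7 in the siTERT library and 205 in the HKR3 library (-0.54), with a ratio of 0.685 and a counting interval from 0.642 to 0.731. MT1G was at 104, 62.0 and 43.1 FPKM (-0.73) and MT1X at 139, 127 and 116 FPKM (-0.13). Each of these 3 was highest in the control and lowest in the HKR3 library. The promoter of MT2A at chr16:56608434-56608583 (plus strand) is shown with matches to the metal response element core TGCNCNC in capitals.
MT2A: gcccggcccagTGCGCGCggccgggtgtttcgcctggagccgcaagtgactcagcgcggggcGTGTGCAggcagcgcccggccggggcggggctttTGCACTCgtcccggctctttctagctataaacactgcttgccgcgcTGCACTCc
Its 300-base window holds 8 matches and that of MT1X 4, the 2 metallothionein promoters at hand, where the median promoter holds 1 and 55.2% hold any. Among promoters of kept genes 63.7% hold any.

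Asparagine synthetase and the serine pathway stood at the low end of the amino acid synthesis enzymes, whose median lay near that of other large families. ASNS, which makes asparagine, was at 86.8 FPKM in the control, 36.2 in the siTERT library and 25.3 in the HKR3 library. Its difference of -1.24 was the lowest of any gene with a symbol, and its ratio of 0.417 had a counting interval from 0.355 to 0.489. The serine pathway followed in its 3 steps, PHGDH at 236, 178 and 106 FPKM (-0.41), PSAT1 at 386, 283 and 165 FPKM (-0.44) and PSPH at 76.9, 54.8 and 36.6 FPKM (-0.48). All 4 were highest in the control and lowest in the HKR3 library. Over 20 kept genes the median was -0.13 in the siTERT library and -0.59 in the HKR3 library. In the siTERT library 16 were below 0, 4 above 0 (ASS1 the highest at 0.20) and 6 at least 1.2-fold lower. Of all genes kept 54.1% were below 0 and 8.94% at least 1.2-fold lower.

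These enzymes, and those that load amino acids onto transfer RNA, are known targets of ATF4, the factor of the integrated stress response. Of 20 cytosolic aminoacyl-tRNA synthetases 19 were below 0, where 54.1% of all genes kept were. Their median was -0.18 in the siTERT library and -0.44 in the HKR3 library. MARS1 was at 157, 106 and 98.4 FPKM (-0.56) and GARS1 at 262, 194 and 127 FPKM (-0.43). EIF4EBP1, an inhibitor of cap-dependent translation and the lowest of the 20 regulators described below, was at 228, 159.7 and 87.1 FPKM (-0.51). Among 18 transporters of amino acids 9 were above and 9 below 0, but SLC6A14 at 56.1, 33.5 and 14.7 FPKM (-0.73) and the glycine carrier SLC6A9 at 18.7, 11.1 and 7.46 FPKM (-0.70) were past 1.5-fold lower. The 20 regulators of the integrated stress response had a median of 0.01, with 10 on either side, and ATF4 itself was at 580.0, 493 and 633 FPKM (-0.23). Of these regulators 4 exceeded the control by 1.2-fold or more, among them ATF3 (0.67) and GDF15 (0.51). Short of it by as much were 2, EIF4EBP1 and CHAC1 (-0.42).

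The ASNS promoter at chr7:97872409-97872558 (minus strand) is shown with its 1 match to the amino acid response element TGATGNAA in capitals.
ASNS: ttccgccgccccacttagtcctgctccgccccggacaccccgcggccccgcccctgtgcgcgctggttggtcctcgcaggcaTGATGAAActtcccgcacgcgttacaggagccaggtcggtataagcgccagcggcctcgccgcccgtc
This motif was found in 3 of 13 promoters of the synthesis enzymes and 6 of 16 of the synthetases. It was in 3.67% of all promoters and 1.60% of those of kept genes. Over the 110 kept genes that held it the median difference was -0.06, and 14.5% were at least 1.2-fold lower, against 8.86% of kept genes with a promoter. The 110 include the 3 enzymes and 6 synthetases just counted, and the share without them was not measured.

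**Figure D4:**
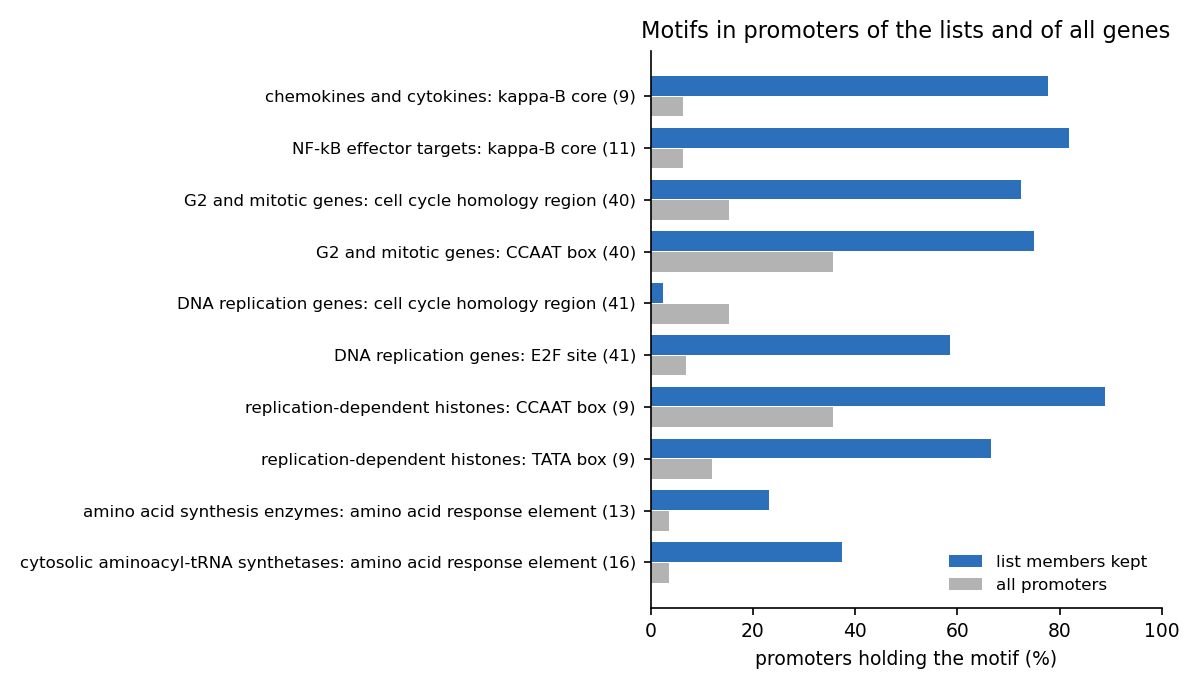
Share of promoters, in percent, that hold a motif on either strand within 250 bases before to 50 after the start, for the kept members of a list (blue, number of promoters in brackets) and for all 27305 promoters (grey). The grey bars include promoters of genes not kept. The kappa-B core is in 7 of 9 promoters of the chemokine and cytokine list. TTTGAA is in 29 of 40 mitotic but 1 of 41 replication promoters, and the E2F motif in 24 of 41 replication promoters.

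The kept genes of telomeres and telomerase lay at or slightly below the control. Of 10 kept telomerase genes, 10 were below 0 with a median of -0.09 in the siTERT library and -0.25 in the HKR3 library. Of all genes kept 54.1% were below 0. NHP2, which binds the telomerase RNA and guide RNAs, was at 218, 169 and 109.9 FPKM (-0.37), and DKC1, the enzyme of the same particle, at 88.2, 80.5 and 79.6 FPKM (-0.13). TEP1, a telomerase-associated protein under the level filter, was at 2.999, 5.98 and 4.47 FPKM (0.80). The 8 kept genes of shelterin, which caps telomeres, and its partners had a median of -0.17 with 8 below 0. Among them ZBTB48, at -0.01, was kept through its level in the HKR3 library and was level between the other pair. ACD, encoding TPP1, which recruits telomerase, was at 27.0, 20.7 and 12.1 FPKM (-0.37) and TINF2 at 17.6, 13.5 and 16.6 FPKM (-0.36), while TERF2 was at 14.5 and 14.3 FPKM (-0.02).

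Genes of RNA interference and of the interferon response to foreign nucleic acid were mostly level. The 8 kept genes of RNA interference had a median of -0.06, and AGO2, the cutting Argonaute, was at 5.27, 5.81 and 7.33 FPKM (0.12). The 10 kept interferon-stimulated and nucleic acid sensing genes had a median of 0.00, with 5 on either side. ISG15 was at 33.1, 37.9 and 49.4 FPKM (0.19) and IFI6 at 7.56 and 7.22 FPKM (-0.06). ISG20, a nuclease, at 2.84, 6.14 and 8.48 FPKM (0.90) was the 1 member past 1.5-fold. It was under 5 FPKM in the control and passed the filter through the other libraries. Its ratio had a counting interval from 1.19 to 4.34. Heat shock proteins had a median of -0.16, with 16 of 19 below 0, where 54.1% of all genes kept were. HSPA1A and HSPA1B, near copies of the inducible chaperone, had 19.7 and 12.8 FPKM (-0.58) and 19.4 and 12.8 FPKM (-0.56), and their split is uncertain.

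**Figure D5:**
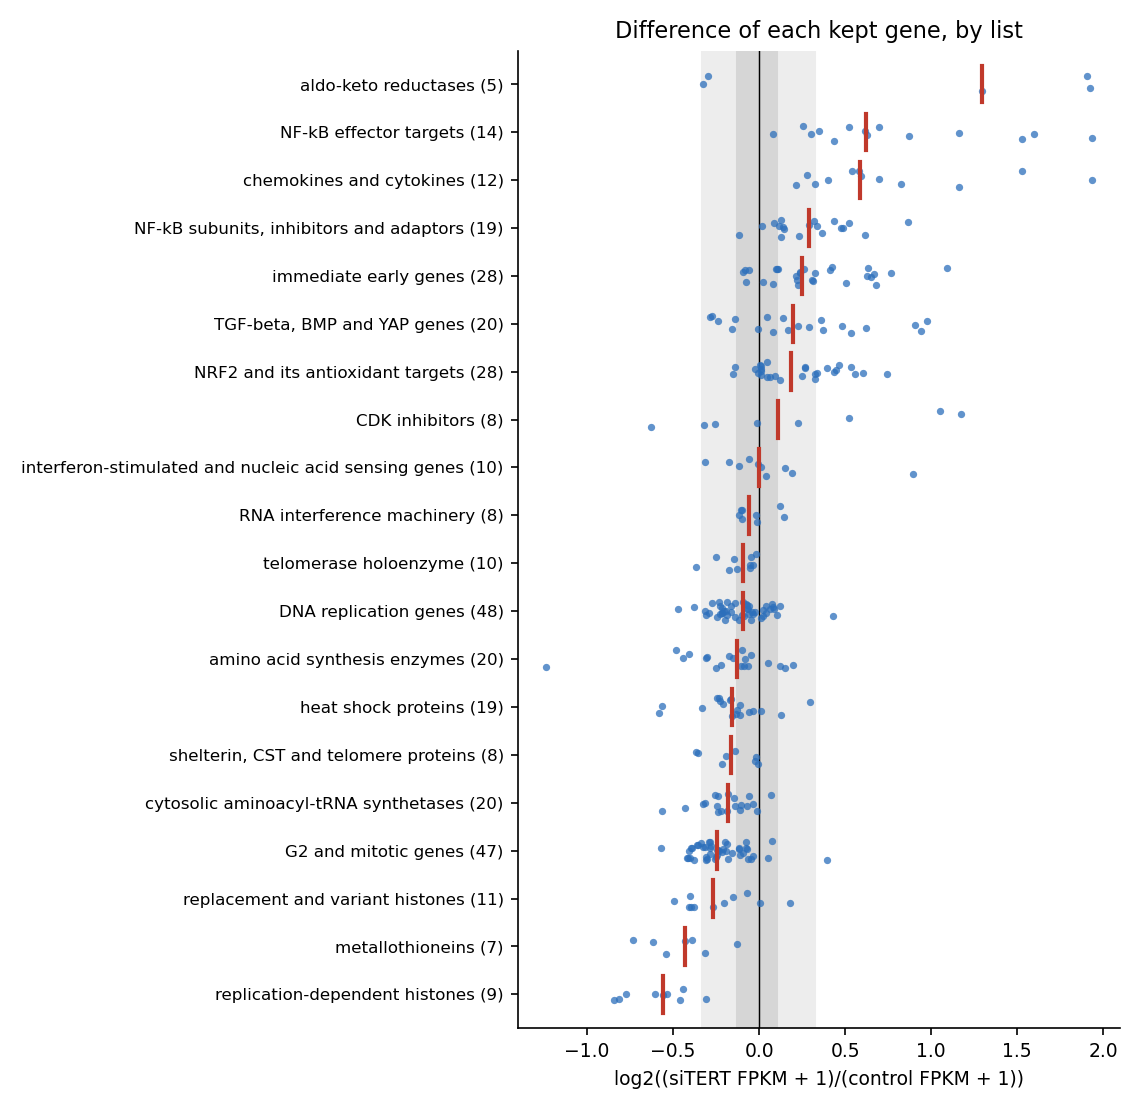
Log2 difference of the siTERT library from the control for each kept gene (points) of 20 lists, with the number of genes in brackets and the list median as a red bar. The dark band spans the quartiles of all 8318 genes, -0.13 to 0.10, and the light band their central 90%. Medians run from -0.56 for replication-dependent histones to 1.29 for aldo-keto reductases, of which 2 of 5 were under 5 FPKM in the control.

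Of 64 lists with at least 4 kept genes, 31 had a median above 0 and 33 below, and 40 lay within 0.1 of 0. Past 1.2-fold were 4 medians on the higher side and 3 on the lower. Large families of basic functions lay slightly below or near the middle of all genes kept, of which 54.1% were below 0. Oxidative phosphorylation, with 80 nuclear-encoded subunits, had a median of -0.13 with 70 below 0, the 65 spliceosome genes one of -0.12 with 57 below 0, and the 80 cytosolic ribosomal protein genes one of -0.08 with 67 below 0. The 46 translation factors had a median of -0.01 and the 36 genes of ribosome biogenesis one of -0.03. Highly expressed genes as a whole lay lower, and all genes at 300 FPKM and above had a median of -0.06. Level and transcript length move together with the difference across all genes. Genes at 5 to 10 FPKM had a median of 0.02, the fifth of genes with the longest transcripts 0.03 and the fifth with the shortest -0.04. With the trend in level removed, the median of oxidative phosphorylation was -0.09 and that of mitotic genes -0.26.

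Many of the largest single differences belonged to none of the lists, 53 of 93 higher and 55 of 66 lower genes. PNN, a nuclear protein of splicing and cell adhesion, was at 34.3 FPKM in the control, 73.6 in the siTERT library and 140.3 in the HKR3 library (1.08). TNFRSF11B, encoding osteoprotegerin, a decoy receptor, was at 9.56, 19.9 and 39.3 FPKM (0.98). MAPK8IP3, a scaffold of JNK signalling, was at 3.45, 8.34 and 8.38 FPKM (1.07). S100A6, a calcium-binding protein, was at 71.5, 135 and 89.1 FPKM (0.90) and was highest in the siTERT library. On the lower side, CLEC2L was at 23.7, 10.7 and 5.34 FPKM (-1.08), FAM210B, a mitochondrial protein, at 14.5, 6.72 and 4.78 FPKM (-1.01) and BCAS3 at 9.52, 4.65 and 5.14 FPKM (-0.90). WWOX, an oxidoreductase, was at 7.91, 4.10 and 7.70 FPKM (-0.81), level in the control and HKR3 libraries and low in the siTERT library.

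Shared sequence touches a few of these genes. Of the 93 higher genes 7, and of the 66 lower 5, share 50% or more of their sequence with another gene, against 1.17% of genes kept. GATD3, at 33.8 and 16.5 FPKM (-0.99), and its near copy ENSG00000280071, at 0.00221 and 14.1 FPKM, had a sum of 33.8 FPKM in the control and 30.6 in the siTERT library, a difference of -0.14. Of the genes past 1.5-fold, 92 of 93 higher and 65 of 65 lower with an estimate had a 95% counting interval of the ratio that did not reach 1. These genes were picked by the size of that ratio, and the intervals cover counting error alone, not differences between cultures. Some intervals may be too narrow, since the fragments of some genes were estimated with the longest transcript.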

How the data were processed

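Messenger RNA of 3 Hep3B libraries, 1 per group, was sequenced. The authors deposited 1 table of FPKM per gene and library. Per the submitters' processing notes it was made with STAR 2.5.0, Cufflinks and Cuffdiff 2.2.1 on hg19. Strand use, filters and scaling between libraries are not stated there. Titles and treatment labels gave the groups.

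From the 19869 entries, 6 that repeated a symbol were summed, leaving 19863 genes, and 8318 averaged 5 FPKM or more over the 3 libraries. Levels just outside and just inside this limit were means of 4.997 and 5.003 FPKM. Differences are log2(FPKM + 1), with a pseudocount of 1, and size rules of 1.2-, 1.5- and 2-fold replaced a test, since each group has 1 library. Gene lists were described by counts and medians beside all genes kept. The members, lists and motifs were chosen with earlier results of these data known, and TTTGAA was added as a motif after the levels were at hand. Named genes were TERT, the 20 highest and 20 lowest genes with a symbol, list members past 1.5-fold and up to 4 others per list. Further genes, among them CDC20, PLK1, CCNB2, RELA, FOS, NQO1, MKI67 and TEP1, were named for their role after their values were seen.

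Fragments per library were estimated from genes at the FPKM of 1 fragment (54 of 64, 55 of 74 and 47 of 74 low genes within 25%), with GENCODE v29 transcripts. The depth of the siTERT library was 1.11 times that of the control by 19 low genes. Counting intervals are exact binomial at 95% and cover counting error only. The fragments of a gene were estimated with its shortest transcript, or with its longest where the shortest was under 500 bases. In the second case the fragments may be overestimated and the interval too narrow. Shared sequence was measured with stretches of 31 bases. Promoters came from RefSeq (GRCh38.p14), matched by symbol for 6896 of 8290 kept genes, at the first listed start. Both strands were searched, and matches of different motifs may overlap. Python 3.11.15, numpy 2.4.6, pandas 2.3.3, scipy 1.17.1 and matplotlib 3.10.9 were used.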

Additional observations from a re-analysis of the deposited data

How the results depend on the processing

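With 1 library per group these values describe 2 libraries, and no setting below replaces a replicate. No paired analysis was possible because each group has 1 library. TERT stayed above 0 under each setting, from 0.10 with a pseudocount of 5 to 0.20 with the libraries scaled to one FPKM sum. Of 760 list medians under other settings 737 moved by less than 0.1, 21 moved further and 2 changed sign from a median of at least 0.1 in size, while smaller medians could cross 0. Of 3171 values of named genes 29 moved past their counting interval, and 0 of those past 1.5-fold changed sign. The cause of each move listed here was not tested, except that a filter alters which genes are counted.

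A pseudocount of 5 gave 38 higher and 25 lower genes at 1.5-fold, a level limit of 1 FPKM gave 186 and 136, one of 20 FPKM gave 36 and 15, and no filter gave 209 and 173. At 2-fold a pseudocount of 0.1 gave 28 and 11, one of 5 gave 10 and 3, a limit of 1 FPKM gave 31 and 22, one of 20 FPKM gave 8 and 1, and no filter gave 34 and 37. With a control level of at least 5 FPKM, a setting chosen after seeing the data, 10 genes were 2-fold higher.

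With a pseudocount of 5 the medians were 0.38 for chemokines, 0.44 for NF-kB effector targets, 1.04 for aldo-keto reductases and -0.39 for replication-dependent histones, which were at -0.67 with one of 0.1. With a mean of at least 20 FPKM they were 0.82 for chemokines, 0.89 for effector targets, 0.37 for TGF-beta, BMP and YAP genes, 0.28 for epithelial and mesenchymal markers and 0.036 for antigen presentation. With no filter they were 0.28 for chemokines, 0.50 for effector targets, 0.49 for aldo-keto reductases (0.80 with at least 1 FPKM), -0.38 for histones and 0 for epithelial and mesenchymal markers. With the control at 5 FPKM or more they were 0.48 for effector targets, 0.19 for NF-kB subunits and inhibitors and -0.71 for histones. CDK inhibitors turned to -0.13 there, and to -0.014 with the mean over control and siTERT, where aldo-keto reductases were at 0.50. Scaling to one FPKM sum put matrix and integrin genes at 0.072.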

Other observations

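Groups outside the account above held smaller differences. Targets of the hypoxia factor HIF had a median of 0.13 over 19 kept genes, 16 of them above 0 and 7 at least 1.2-fold higher. Of all genes kept 45.9% were above 0 and 8.24% at least 1.2-fold higher. PFKFB3, which makes the activator of phosphofructokinase, was at 10.3 FPKM in the control, 16.8 in the siTERT library and 13.1 in the HKR3 library (0.66). NDRG1 was at 52.3, 78.8 and 58.4 FPKM (0.58). Both were highest in the siTERT library. Of 18 liver-enriched transcription factors 13 were above 0, with a median of 0.12, and CEBPD, a factor of the acute phase, was at 39.5, 63.1 and 147 FPKM (0.66). HNF4A, the main hepatocyte factor, was at 72.1, 84.7 and 55.4 FPKM (0.23).

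The 166 kept zinc finger genes named ZNF, mostly repressors, had a median of 0.06 in the siTERT library and 0.46 in the HKR3 library, with 105 above 0 in the first. Of 17 kept genes with an ABC symbol, ABCE1, ABCF1, ABCF2 and ABCF3 among them besides transporters, 14 were above 0. Of all genes kept 45.9% were. Antigen presentation genes had a median of 0.17 over 9 kept. Genes of cholesterol synthesis (28 kept, 0.03), acute-phase proteins (16 kept, 0.05) and 14 housekeeping controls (0.01) were near the median of all genes.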
